A study of Mus musculus with 2 samples.

Results

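Open chromatin at 69 axon guidance genes was described in frontal cortex of young mice, out of 21938 protein-coding genes of the GENCODE M21 annotation. The genes were chosen by symbol alone, as every coding gene of the Eph receptor, ephrin, class 3 to 7 semaphorin, plexin, neuropilin, netrin, Unc5, Slit and Robo families, together with Dcc. They comprised 35 ligands and 34 receptors. DNase-seq, which maps accessible chromatin by sequencing the fragment ends that DNase I leaves, was available for 2 libraries of whole frontal cortex from female B6CASTF1/J mice, an F1 cross of a B6 and a CAST parent, aged 10 days. The labels name the libraries biological replicates 1 and 2 of 1 group, so no conditions were compared, no test between groups was possible, and each value is given for replicate 1 and then replicate 2. The labels also carry the mark "3x" without saying what it means.

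A growing axon finds its target by reading attractive and repulsive proteins on its way. Netrins act through Dcc and the Unc5 receptors, Slits repel through Robo receptors, most secreted class 3 semaphorins act through neuropilins with plexins, the membrane-bound semaphorins bind plexins directly, and ephrins signal through Eph receptors in both directions between touching cells. In the young cortex these proteins steer callosal, thalamic and corticospinal axons, and many also act later in dendrite and synapse formation.

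The strongest start-site peak and the strongest distal peaks near these genes are shown first. Chosen examples are added of peaks whose motif matches lay under a footprint, a short stretch protected from cutting, in both libraries. All lines give the plus strand of GRCm38, the B6 reference, 5′ to 3′, and the CAST allele is not shown. Capitals mark matches under a footprint in both libraries to GGGCGG (SP/KLF factors) at Ephb3 and Efna2, CAGATG (proneural bHLH factors) at Epha4, TGACGTCA (CREB family) at Sema3b and Epha2, GCGTGGGCG (EGR factors) at Sema6d and Plxna2, the CTCF motif at Unc5b and Slit1, the RFX motif at Efnb3 and TAATTA (homeodomain factors) at Plxna4. Each match is a string of letters and not a shown binding site.
Ephb3 (start site, chr16:21204441-21204740): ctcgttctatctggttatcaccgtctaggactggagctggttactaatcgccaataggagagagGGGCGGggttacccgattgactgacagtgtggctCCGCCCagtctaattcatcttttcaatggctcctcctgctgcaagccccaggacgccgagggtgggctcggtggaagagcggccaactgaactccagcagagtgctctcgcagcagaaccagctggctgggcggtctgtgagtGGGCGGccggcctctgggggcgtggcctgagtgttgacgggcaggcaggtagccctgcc
Efna2 (19.5 kb upstream, chr10:80159801-80160100): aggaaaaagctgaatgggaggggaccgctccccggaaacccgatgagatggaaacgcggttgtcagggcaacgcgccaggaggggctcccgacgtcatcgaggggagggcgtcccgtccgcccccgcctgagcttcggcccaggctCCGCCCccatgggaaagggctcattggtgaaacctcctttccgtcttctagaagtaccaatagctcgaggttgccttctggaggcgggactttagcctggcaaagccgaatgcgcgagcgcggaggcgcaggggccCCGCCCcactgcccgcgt
Epha4 (1.3 kb upstream, chr1:77516447-77516476): ccacctgccggcCAGATGcgggagcgcgcg
Sema3b (3.6 kb upstream, chr9:107612721-107612940): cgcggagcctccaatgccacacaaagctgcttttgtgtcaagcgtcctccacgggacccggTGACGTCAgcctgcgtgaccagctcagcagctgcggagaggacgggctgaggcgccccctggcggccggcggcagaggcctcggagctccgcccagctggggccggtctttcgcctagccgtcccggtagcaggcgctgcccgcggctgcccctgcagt
Epha2 (start site, chr4:141301101-141301269): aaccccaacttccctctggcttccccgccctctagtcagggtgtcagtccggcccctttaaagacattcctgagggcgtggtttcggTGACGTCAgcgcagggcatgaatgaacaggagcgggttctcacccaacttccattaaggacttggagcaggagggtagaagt
Sema6d (inner start site, chr2:124610369-124610398): cgcgtgtgtttGCGTGGGCGtagcgtcgta
Plxna2 (inner start site, chr1:194619731-194619760): gcgggcggggcGCGTGGGCGgggagggggt
Unc5b (downstream, chr10:60760481-60760680): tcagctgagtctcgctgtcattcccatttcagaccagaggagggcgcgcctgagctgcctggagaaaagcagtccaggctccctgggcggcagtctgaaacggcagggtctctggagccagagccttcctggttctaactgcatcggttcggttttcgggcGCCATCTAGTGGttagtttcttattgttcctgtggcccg
Slit1 (intron, chr19:41647061-41647260): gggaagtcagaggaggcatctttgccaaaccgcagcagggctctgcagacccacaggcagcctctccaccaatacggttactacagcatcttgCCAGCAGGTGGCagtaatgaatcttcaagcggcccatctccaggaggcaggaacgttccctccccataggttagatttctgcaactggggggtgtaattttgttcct
Efnb3 (intron, chr11:69557698-69557860): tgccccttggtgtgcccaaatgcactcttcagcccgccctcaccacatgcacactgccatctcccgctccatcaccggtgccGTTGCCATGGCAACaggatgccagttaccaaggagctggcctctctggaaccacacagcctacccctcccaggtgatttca
Plxna4 (3.4 kb upstream, chr6:32591481-32591680): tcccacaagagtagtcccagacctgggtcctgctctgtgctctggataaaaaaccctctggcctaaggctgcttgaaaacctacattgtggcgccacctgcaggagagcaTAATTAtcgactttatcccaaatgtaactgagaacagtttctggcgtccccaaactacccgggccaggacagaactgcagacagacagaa

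Replicate 1 held 104654 peaks and replicate 2 held 81654, and their median signals were 0.604 and 0.88 in the authors' deposited units, in which the read depth is not given. At the start sites of all 8 pan-neuronal marker genes a peak was present in both libraries, as at 8 and 7 of 8 excitatory neuron markers and 6 and 6 of 8 inhibitory neuron markers. For other cells of the tissue the counts were 8 and 6 of 8 for astrocytes, 5 and 4 for the oligodendrocyte lineage, 4 and 3 for microglia and 5 and 3 for endothelial and mural cells, while 1 and 0 of 8 genes of other organs were open. Over all coding genes the share was 66.1% and 63.3%. The oligodendrocyte, microglial and endothelial sets lay below that share in both libraries, and the inhibitory set, at 75% in each, was not far above it. In such whole tissue, few cells with an open site and many cells with a weakly open site cannot be told apart.

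Nearly all guidance genes had an open start site. Genes with a peak overlapping the 500 bp around at least 1 annotated start site were called open, which held for 64 and 61 of 69 members (92.8% and 88.4%) against 66.1% and 63.3% of all coding genes. In both libraries 61 members were open, against 62.8% of all coding genes, and 3 were open in replicate 1 alone. The rate was alike for ligands (33 and 32 of 35) and receptors (31 and 29 of 34).

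The peaks at these start sites were nevertheless weaker than at most open genes. The promoter signal, the strongest peak within the 500 bp window with 0 for none, had a median of 1.54 and 1.82 over the 69 members and of 1.38 and 1.56 over all coding genes. Among open genes the order was the other way round, with a median of 1.70 and 2.15 for the members and 3.13 and 3.73 for all genes, and 14 and 13 members exceeded that all-gene value. Receptors had a median of 1.98 and 2.28, and ligands 1.24 and 1.40.

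CpG content differed between the members and all genes. The median ratio of observed to expected CpG at the annotated gene start was 0.68 in members and 0.55 in all genes. Among genes with a ratio of at least 0.57, the members' lower quartile, 96.2% of members in either library and 96.4% and 94.7% of all genes were open, but the median signal was 1.98 and 2.17 in members against 3.81 and 4.27 in all genes. Below that ratio, 14 and 11 of 17 members were open, against 37.7% and 33.9% of all genes. These members had a median of 5 start sites and those genes 2, and any open site sufficed. Sema3a, Sema3b and Plxna2, with ratios of 0.36, 0.17 and 0.11, were open only at an inner start, to which the ratio does not refer. Whether start sites of low CpG content were open more often in members was therefore not tested. The rank correlation of the CpG ratio with the mean promoter signal was 0.42 over the 69 members and 0.73 over the 21938 coding genes, which share the libraries and their depth.

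**Figure D1:**
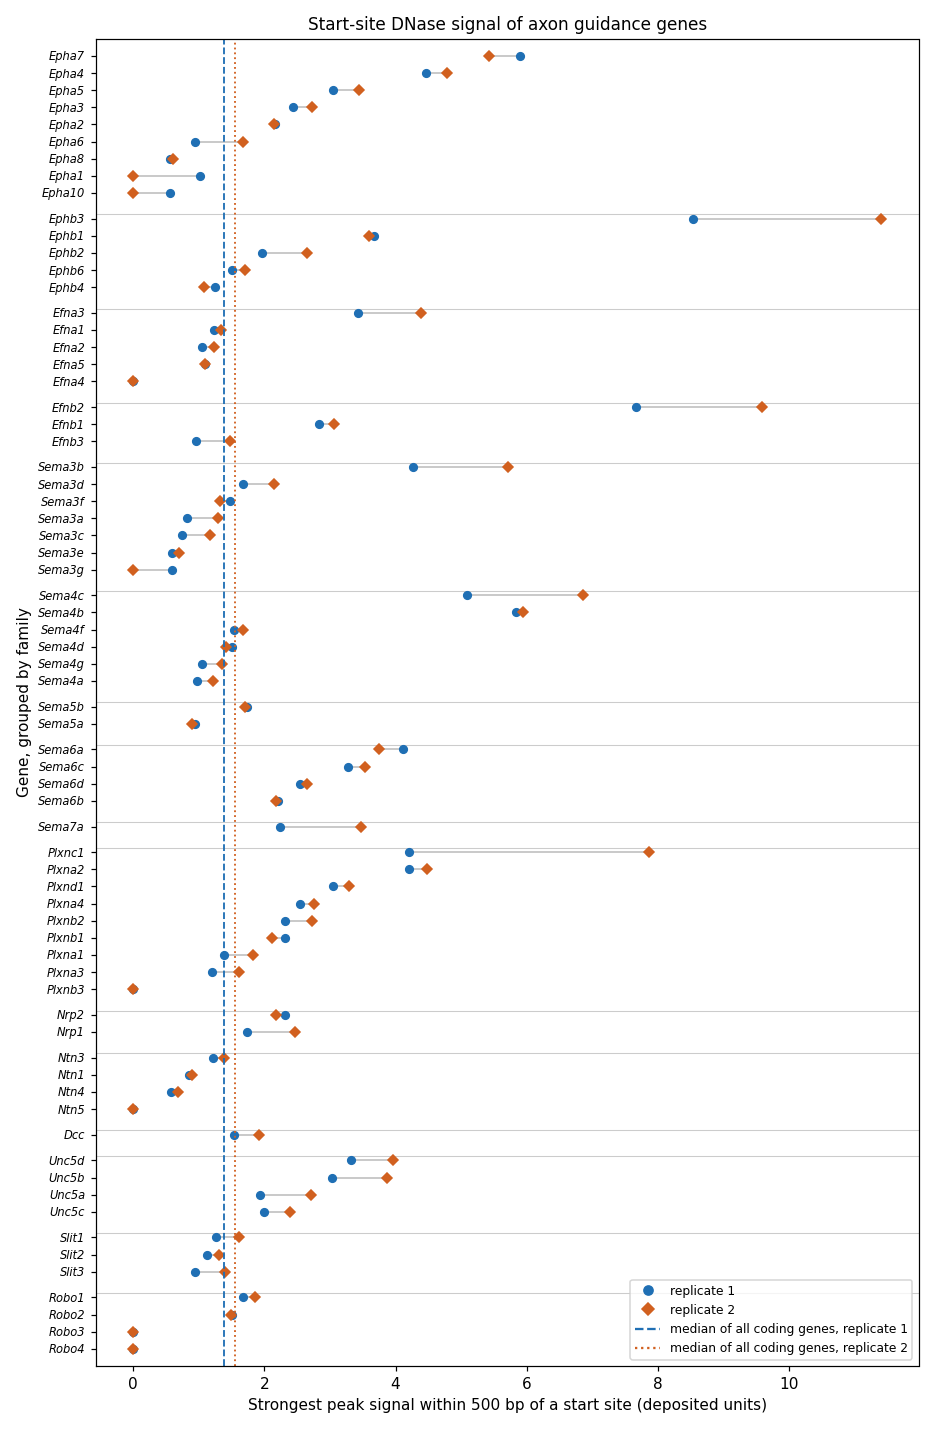
Each row is 1 of the 69 genes, grouped by family, and the horizontal axis is the strongest peak signal within 500 bp of an annotated start site in deposited units, with circles for replicate 1, diamonds for replicate 2 and vertical lines at the medians of all coding genes (1.38 and 1.56). Ephb3 and Efnb2 lie farthest to the right, and 5 genes sit at 0 in both libraries.

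Among the ephrins, the membrane-bound ligands of Eph receptors, the transmembrane B class held the strongest ligand start site. Efnb2, which is also an arterial marker, had a promoter signal of 7.66 and 9.59. Efnb1, an X-linked ephrin, had 2.84 and 3.06, and Efnb3, a midline barrier to corticospinal axons, had 0.964 and 1.48. The B class thus spanned most of the range of the ligands, and its order was kept in both libraries.

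The lipid-anchored ephrin-A ligands were weaker, with a median of 1.09 and 1.23. Efna3 led with 3.42 and 4.38, while Efna1, Efna2 and Efna5, a graded mapping cue of visual and cortical axons, lay between 1.05 and 1.34. Efna4 had no start-site peak in either library. Efna1, Efna3 and Efna4 are neighbours on chromosome 3, so the regions with 20 kb on each side of Efna3 overlap those of both other genes and some peaks count for 2 members.

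Of the 20 semaphorins, all were open in replicate 1 and 19 in replicate 2. The membrane-bound class 6, ligands and receptors for class A plexins, had all 4 genes above the all-gene medians, between 2.18 and 4.12 in both libraries. Class 4 was split: Sema4c (5.09 and 6.85) and Sema4b (5.83 and 5.94) stood above the other 4, which lay between 0.979 and 1.67. The level of Sema4c depends on the window, since its mean of 5.97 became 2.59 within 100 bp of its start sites and 2.17 at the annotated gene start alone, and the gene D430040D24Rik starts in the same region. Sema7a, the only lipid-anchored semaphorin, had 2.24 and 3.47.

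The secreted class 3 semaphorins were low, with a median of 0.823 and 1.30. Sema3b was the exception at 4.26 and 5.72, while the other open genes of the class lay between 0.589 and 2.15. Sema3a, the classic collapsing factor of sensory and cortical axons, had 0.823 and 1.30, and Sema3e, a ligand of Plxnd1, had 0.589 and 0.699. Sema3g had a peak of 0.599 in replicate 1 and none in replicate 2. In class 5, Sema5b had 1.74 and 1.71 and Sema5a 0.943 and 0.891.

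The secreted netrins had the lowest median signal of the ligand families in both libraries, 0.711 and 0.795, with Ntn3 highest at 1.21 and 1.39, Ntn1, the founding chemoattractant, at 0.849 and 0.902, Ntn4 at 0.573 and 0.688 and Ntn5 without a peak. Ntn3 shares its start region with the gene BC028777, so its peak cannot be ascribed to Ntn3 alone. In all, 8 members share an open start region with another annotated gene, the others being Epha4, Epha6, Epha7 (at an inner region), Sema4c, Sema5a, Nrp1 and Unc5c. The same share over all coding genes was not counted. Of the secreted Slits, Slit1 had 1.27 and 1.62, Slit2 1.13 and 1.31 and Slit3 0.938 and 1.40. Slit1 was the highest of the 3 in both libraries, but its lead over the next gene was smaller than the spread between libraries given below. Slit2 and Slit3 changed places between the libraries.

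Among the receptors, the B class of Eph receptors held the strongest start site of all 69 genes. Ephb3, which acts with Ephb2 in commissural axon guidance, had 8.53 and 11.4 at the peak printed above, higher than 96.2% and 98.5% of all coding genes, and 3.04 and 3.14 at a further start region 5.8 kb into the gene. Ephb1 had 3.67 and 3.60, Ephb2 1.97 and 2.65, the kinase-inactive Ephb6 1.51 and 1.70, and Ephb4, known from venous endothelium, 1.25 and 1.08. All 5 genes were open in both libraries.

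The 9 EphA receptors ranged from some of the strongest start sites to the weakest. Epha7 (5.89 and 5.42), Epha4 (4.47 and 4.79), Epha5 (3.05 and 3.44), Epha3 (2.43 and 2.73) and Epha2 (2.16 and 2.15) lay above the all-gene median in both libraries. Epha6 had 0.943 and 1.68 and Epha8 0.568 and 0.609. Epha1 (1.02) and Epha10 (0.568), the latter a receptor without kinase activity, had a peak within 500 bp in replicate 1 alone.

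Plexins, the signalling receptors of semaphorins, had a median of 2.32 and 2.72, and 8 of 9 were open in both libraries. Plxnc1, the receptor of Sema7a, had 4.21 and 7.87, Plxna2 4.21 and 4.48, Plxnd1 3.04 and 3.29, and the other open plexins lay between 1.2 and 2.76. Plxnb3 had no start-site peak. The neuropilins, co-receptors of class 3 semaphorins, were open in both libraries, with 1.73 and 2.47 for Nrp1 and 2.32 and 2.17 for Nrp2.

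The netrin receptors among the members, Dcc and the Unc5 genes, were all open. The Unc5 receptors, which mediate repulsion, had higher signals than the attractive receptor Dcc. Unc5d (3.32 and 3.96) and Unc5b (3.03 and 3.87) led, Unc5a had 1.94 and 2.71, Unc5c 1.99 and 2.39, and Dcc 1.54 and 1.92. This order holds for the chosen families only. Of the guidance genes outside them, Neo1 (5.24 and 5.9) lay above all of these receptors and Dscam (1.09 and 1.29) below. For the Slit receptors, Robo1 had 1.67 and 1.86 and Robo2 1.5 and 1.49. Robo3, which acts in commissural axons before they cross, and Robo4, an endothelial receptor, had no peak within 500 bp of a start site.

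The genes without a start-site peak were not alike when peaks farther out were read. Robo3 had a peak of 3.72 and 5.40 at chr9:37430661-37430860, 527 bp from an annotated start site and so just past the limit. Epha10 had a peak of 3.89 in replicate 2 at chr4:124881441-124881820, 542 bp from its start. Replicate 1 held an overlapping peak of 3.23 at chr4:124881561-124881840, also past the limit, besides the weaker one of 0.568 within it. Ntn5 had 2.60 and 2.80 at chr7:45682821-45683020, 1002 bp from its start. With a 2000 bp window, Robo4 alone lacked a peak in both libraries.

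For Efna4 the nearest peak lay 2553 and 1514 bp from the start site, for Plxnb3 1668 and 21430 bp, and for Robo4 7835 and 4785 bp. The authors' deposited cut-rate tables, which list bases with a false discovery rate up to 0.05, held 0 bases within the windows of Efna4, Plxnb3, Ntn5 and Robo4 in either library. They held 58 and 46 bases at Robo3, with a lowest rate of 6.66e-10 and 2.91e-06, and 208 bases at Epha10 in replicate 2. Epha1 and Sema3g, open in replicate 1, had 0 listed bases in replicate 2.

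Many of the genes have several annotated start sites, and a few were open mainly at an inner one. Sites within 1000 bp of each other were joined into start regions, which gave 206 regions in the 69 genes, with 85 and 78 open. Of 52 members with at least 2 regions, 19 and 16 had at least 2 open. These counts were not made for all coding genes, which had a median of 3 start sites against 4 in members. Whether inner start sites are used more often here than elsewhere was therefore not tested. Sema3a, Sema3b and Plxna2 had a peak only at an inner region in both libraries.

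In Sema3a the annotated gene start had no peak, and the signal of 0.823 and 1.30 was 273.3 kb into the gene. Sema3b was open 7.1 kb in (4.26 and 5.72) and Plxna2 1.6 kb in (4.21 and 4.48). The highest signal of Plxnc1 came from the innermost of its 5 regions, 115.3 kb in, whereas its annotated start had 1.68 and 1.85. Robo1 rose from 0.313 and 0.395 at its start to 1.67 and 1.86 at 354.8 kb, and Sema6d from 1.03 and 1.26 to 2.54 and 2.65 at 520.1 kb. These inner signals were above those of the outer start in both libraries.

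**Figure D2:**
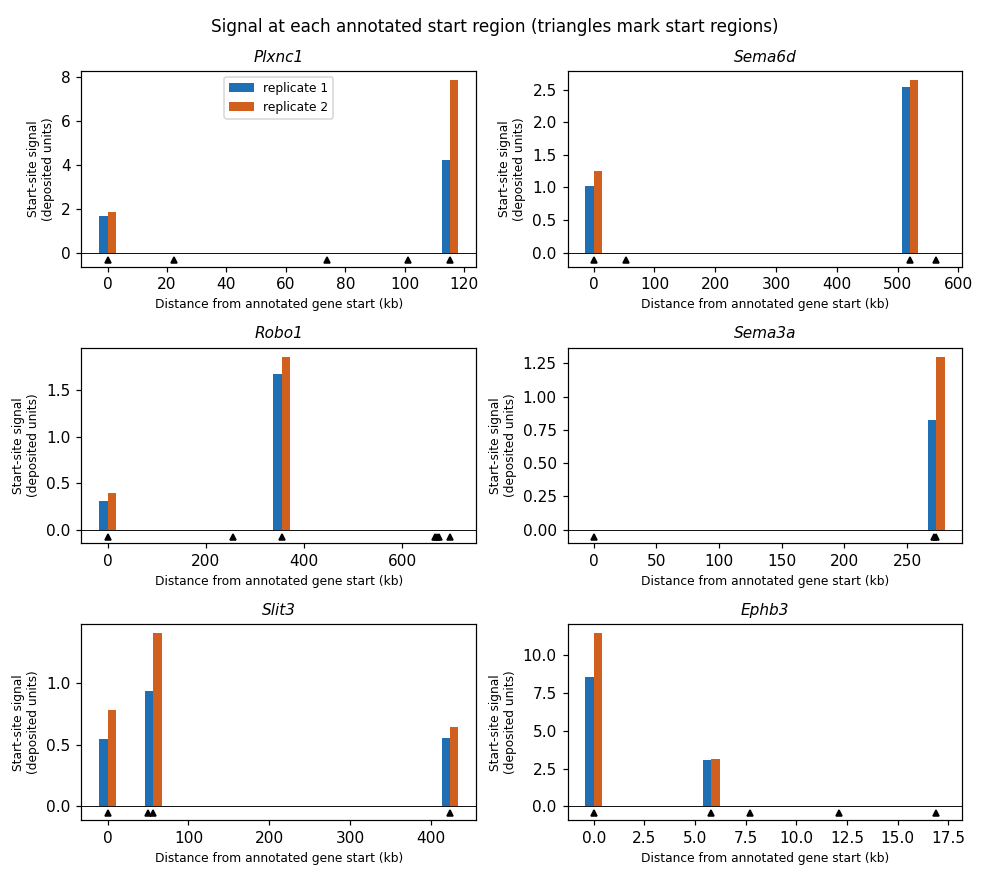
Bars give the strongest peak signal (deposited units) at each annotated start region of 6 genes against the distance from the annotated gene start in kb, for replicate 1 (blue) and replicate 2 (orange), and triangles mark regions with or without a peak. In Plxnc1, Sema6d, Robo1 and Sema3a the higher bars stand at an inner region, 115.3, 520.1, 354.8 and 273.3 kb in, while Ephb3 is highest at its annotated start.

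The libraries agreed closely on promoter signal. Over the 61 members open in both, Pearson's r of log2 signals was 0.96, a description across genes that are not independent replicates. After centring on the median log2 difference of all genes (-0.17), the difference of replicate 1 minus replicate 2 had an SD of 0.25 in members and 0.23 in the 13776 genes open in both. Plxnc1 (-0.73), Epha6 (-0.66) and Sema3c (-0.49) differed most, each higher in replicate 2. Differences of more than 1 log2 unit were rare in general, at 0 of the 61 members and 15 of the 13776 genes. Genes whose signals are closer than this spread, such as Epha7 and Sema4b, cannot be ranked.

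**Figure D3:**
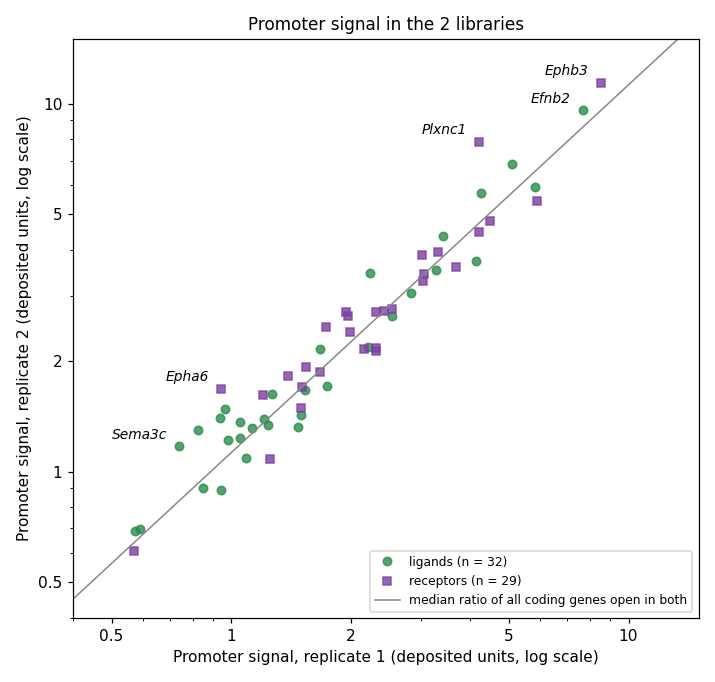
Promoter signal in deposited units on log axes, replicate 1 against replicate 2, for the 32 ligands (circles) and 29 receptors (squares) open in both libraries, with a line at the median ratio of all coding genes. Points follow the line, and Plxnc1, at 4.21 and 7.87, lies farthest above it.

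Around the genes, distal peaks were denser than around most coding genes. A distal peak had its centre more than 1000 bp from every annotated start site of any gene, and density was counted per 100 kb over the gene and its 20 kb flanks. Its median was 5.21 and 3.47 in members against 2.36 and 1.95 in all coding genes, and 50 and 46 of 69 members lay above the all-gene median. Regions without any distal peak made up 4.35% and 8.70% of members' and 26.7% and 32.6% of all genes' regions. Members' regions were longer, however, with a median of 86.3 kb against 57.4 kb. Among regions of 55.6 to 246 kb, the middle of the members' range, the medians were 6.13 and 4.33 in members and 2.87 and 2.02 in all genes. There, 5.71% and 8.57% of members' and 17.3% and 22.5% of all genes' regions had no distal peak. Pooled over the summed length of all regions, the density differed less, at 4.01 and 2.77 in members against 3.52 and 2.51 in all genes.

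Among families of more than 1 gene, ephrin regions had the 2 highest median densities in replicate 1, and EphA regions had the lowest in both libraries. Ephrin-A regions had a median of 11.2 and 5.36 and ephrin-B regions 9.55 and 8.35, while EphA receptor regions had 1.47 and 1.03, below the all-gene medians. In replicate 2, neuropilins (7.26 and 6.03) and class 6 semaphorins (8.49 and 5.69) lay above ephrin-A. Plexins had 7.54 and 3.74, all semaphorins together 5.79 and 3.61, Unc5 receptors 5.48 and 3.49, netrins 4.73 and 3.04, Slits 4.30 and 3.35 and Robo receptors 3.59 and 2.77. EphA regions were long (median 188 kb) and ephrin-A regions short (49.4 kb), and region length and density had a rank correlation of -0.41 over the 69 members and 0.13 over all genes.

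**Figure D4:**
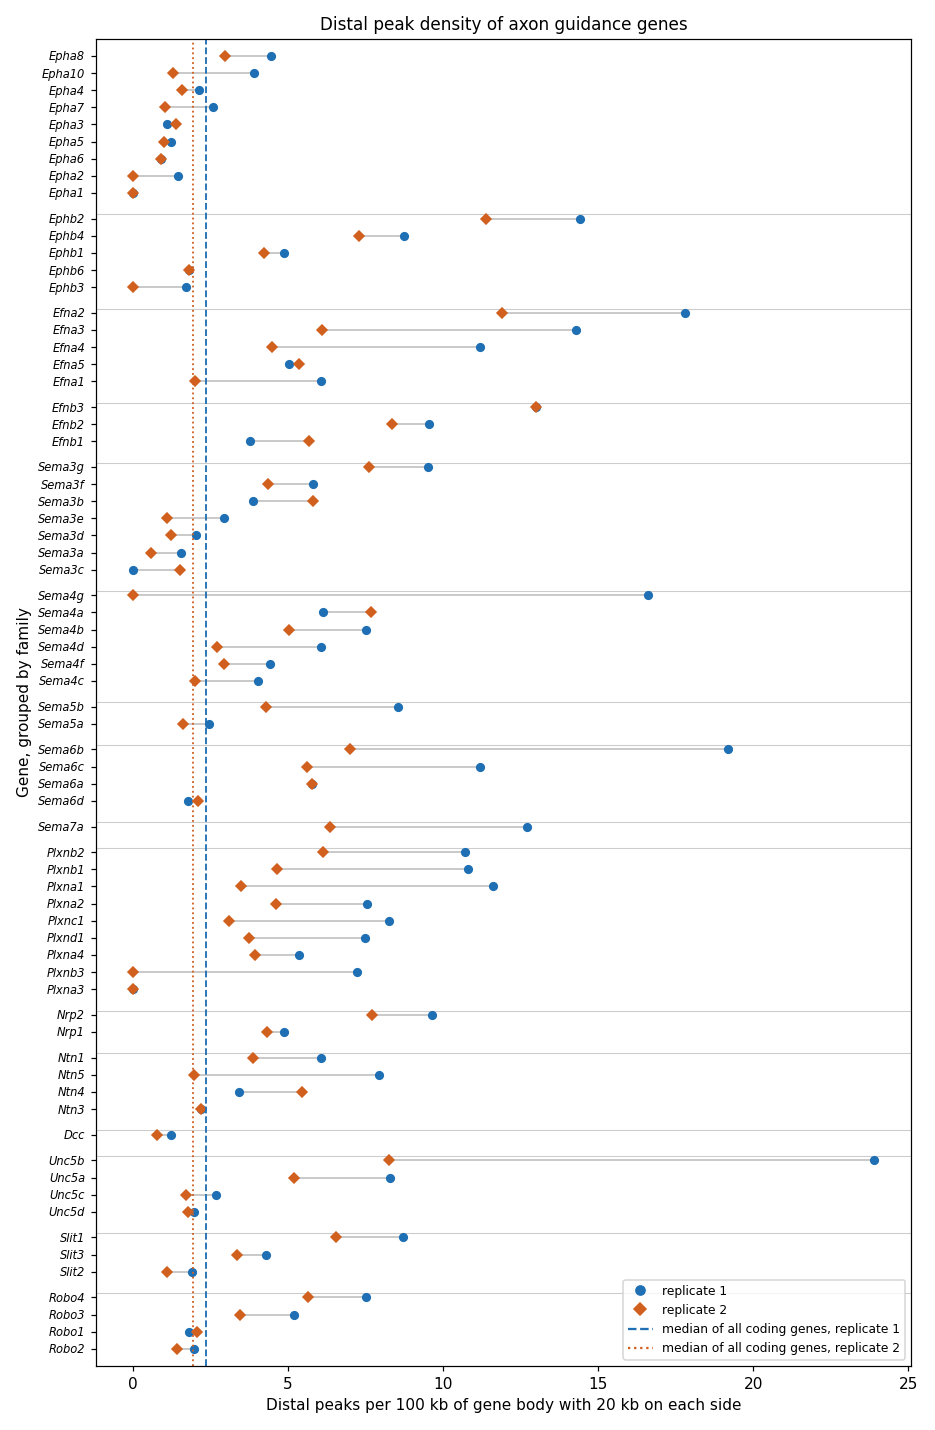
Each row is 1 of the 69 genes, grouped by family, and the horizontal axis is the number of distal peaks per 100 kb over the gene and its 20 kb flanks, with circles for replicate 1, diamonds for replicate 2 and vertical lines at the medians of all coding genes (2.36 and 1.95). All 8 ephrins lie above the line of the same library, Efna1 in replicate 2 only just (2.02), and Unc5b shows a wide gap between libraries.

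The densest regions held up unequally between libraries. Efnb3 had 13 in both, with 6 distal peaks each that were all shared, but the start of Efnb3 was the nearest coding start for only 1 of the 6 in either library. Ephb2 had 14.4 and 11.4, Efna2 17.8 and 11.9, Nrp2 9.65 and 7.72, Efnb2 9.55 and 8.35 and Sema3g 9.53 and 7.62. Of the 10 densest by the mean, Unc5b (23.9 and 8.26), Sema6b (19.2 and 6.99), Efna3 (14.3 and 6.11) and Sema7a (12.7 and 6.37) had 26, 11, 7 and 8 distal peaks in replicate 1 and 9, 4, 3 and 4 in replicate 2, so their rank rests mainly on replicate 1. Densities of compact regions include peaks nearer to other genes, and 0 of the 5 and 0 of the 2 distal peaks of Efna4 were nearest to its own start.

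All 10 of these densities changed by more than 1.5 times under at least 1 other setting, given here as means of both libraries. Without flanks, Efna2 went from 14.8 to 0, so its distal peaks all lie outside the gene, while Efna3 went from 10.2 to 38.6 and Efnb2 from 8.95 to 17.1. With 100 kb flanks, Sema3g went from 8.57 to 2.59, Efnb2 to 3.49, Nrp2 from 8.69 to 5.07 and Efnb3 from 13 to 7.52. With distal peaks more than 2000 bp from a start site, Sema6b went from 13.1 to 4.37 and Efna3 to 4.08. With the shorter peak list, Ephb2 went from 12.9 to 7.66 and Sema7a from 9.56 to 3.98, and with the strongest 50% of peaks Unc5b went from 16.1 to 7.8. The order of the densest genes therefore depends on these settings.

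In Unc5b, 9 distal peaks were shared and had a median signal of 1.17 in replicate 1, while 17 were found in replicate 1 alone with a median of 0.224. Of those, 15 lay together 8.41 to 18.1 kb past the end of the gene, with signals of 0.151 to 0.302. Sema4g showed the same kind of group, with 9 distal peaks of 0.141 to 0.458 between 6.7 and 10.8 kb into the gene in replicate 1 and 0 in replicate 2. Both groups were weaker than the median peak of replicate 1 (0.604), and their origin was not tested.

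**Figure D5:**
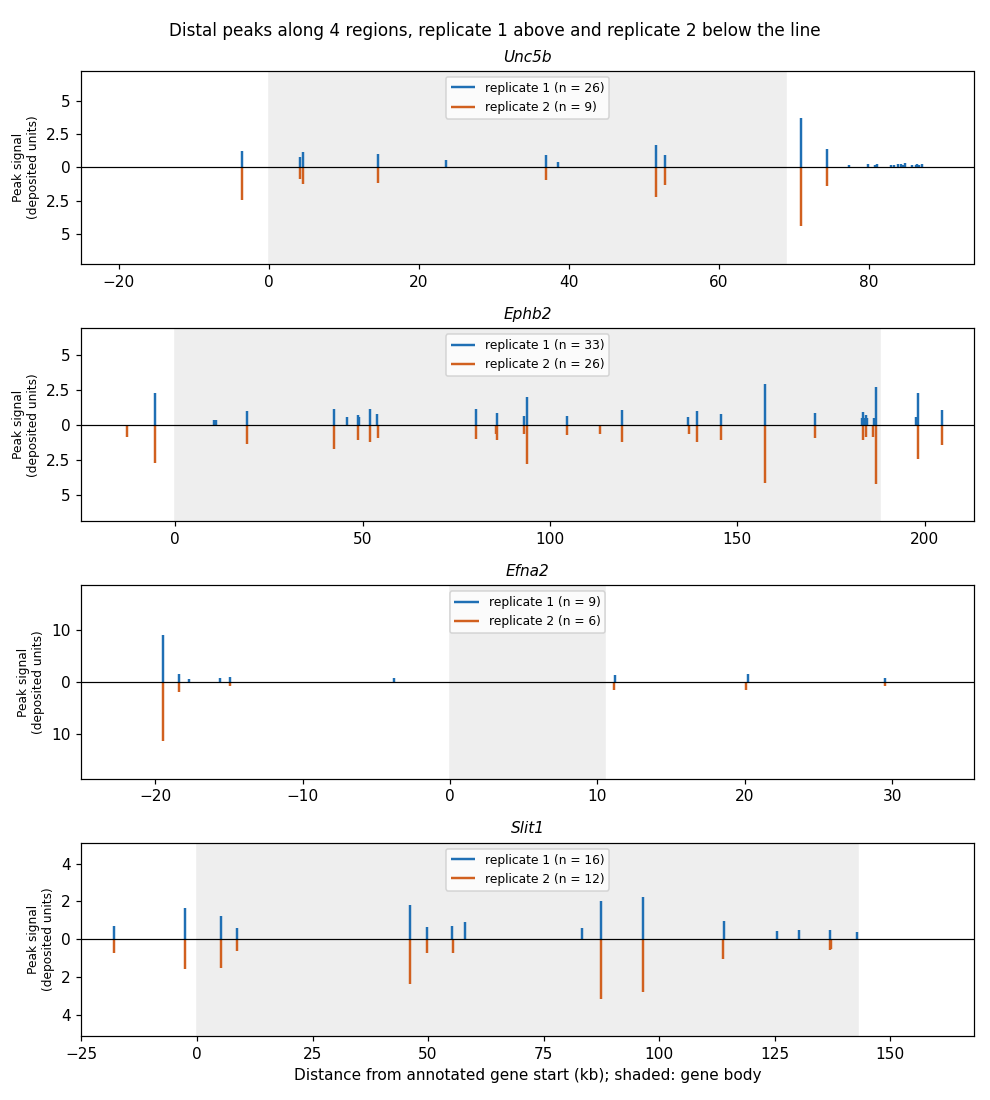
Distal peaks of Unc5b, Ephb2, Efna2 and Slit1, with the distance from the annotated gene start in kb on the horizontal axis and the peak signal in deposited units drawn upward for replicate 1 and downward for replicate 2, and the gene body shaded. Most tall lines have a partner in the other library, whereas the group of short lines past the end of Unc5b, 15 peaks of 0.151 to 0.302, appears in replicate 1 alone.

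At the low end, Epha1 and Plxna3 had 0 distal peaks in both libraries. Epha2 (1.47 and 0), Sema3c (0 and 1.53) and Ephb3 (1.71 and 0) had distal peaks in 1 library only. Ephb3 thus combined the strongest start site with 1 distal peak in replicate 1 and 0 in replicate 2. Over the 69 members, promoter signal and distal density had a rank correlation of 0.09.

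By number, the regions richest in peaks of any kind were Ephb2 (35 and 27), Slit3 (33 and 26), Unc5b (30 and 11), Plxna4 (29 and 23) and Ephb1 (27 and 23). In all, 883 and 656 different peaks lay in the members' regions, and 578 and 401 of them were distal. Of the distal peaks 55.2% and 79.8% overlapped a peak of the other library, against 59.3% and 79.4% of all distal peaks. Shared distal peaks had a median signal of 0.786 and 0.981, and those of 1 library 0.401 and 0.44.

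Most distal peaks were intronic (63.5% and 68.1%), though their density was lowest within the gene body. Per 100 kb there were 6.16 and 4.28 in the 20 kb upstream, 5.36 and 2.68 downstream and 3.61 and 2.61 within the gene body. Around all coding genes the values were 3.51 and 2.46, 4.29 and 2.98, and 3.21 and 2.33. Downstream, members thus lay above all genes in replicate 1 and below them in replicate 2. Of the 74 downstream peaks in replicate 1, 15 were the weak group past the end of Unc5b. The distal peaks were chosen for lying in a guidance gene or within 20 kb of one, which by itself favours a guidance gene as the nearest. For 85.1% and 87.3% of the distal peaks the nearest coding start site was that of a guidance gene, a share not computed for other genes.

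That did not hold for the strongest of them. The strongest, 8.99 and 11.3 at chr10:80159781-80160120, lay 19.5 kb upstream of Efna2 but 6.03 kb from Cirbp, and only 2 of the 9 and 2 of the 6 distal peaks of Efna2 had its start as the nearest. The next, 9.10 and 9.32 at chr9:107612721-107612940, lay 3.6 kb upstream of Sema3b and 3.22 kb from Gnai2. Both stand far above the shared distal median of 0.786 and 0.981, and neither can be ascribed to the guidance gene from these data.

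Among receptors the strongest distal peak, 4.62 and 7.12 at chr1:77516321-77516520, lay 1.3 kb upstream of Epha4. Its nearest coding start was that of Epha4, and its 30 printed bases all lay in annotated exons. It was followed by peaks downstream of Unc5b (3.72 and 4.44, nearer to Slc29a3), upstream of Plxnd1 (2.97 and 4.83), at 157.3 and 186.9 kb in Ephb2 (2.88 and 4.14, and 2.71 and 4.24), and upstream of Ephb4 (3.28 and 3.37, nearer to Slc12a9). For ligands, Sema5a had 3.18 and 4.70 in an intron 1.4 kb from its start and Efnb2 had 3.38 and 3.18 in an exon 2.2 kb in. These 10 peaks were picked among peaks found in both libraries, so their presence in both is no separate result.

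Motif matches were sought on both strands. Shares of peaks with a match, and shares of matches under a footprint, were counted in the central 200 bp of each peak. Matches footprinted in both libraries were instead counted over whole peaks, so these numbers can exceed those of the shares. In distal peaks of the members, CTCF, the factor that holds chromatin loops, matched in 5.88% and 6.73% of peaks against 6.84% and 8.13% of all distal peaks. Of 34 and 27 such matches, 97.1% and 96.3% lay under a footprint, against 93.1% and 81.5% of the matches in all distal peaks. In the members' regions 30 CTCF matches were footprinted in both libraries, 25 of them in distal peaks, and Unc5b held 3.

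Matches to short motifs were less often footprinted. GGGCGG occurred in 42.0% and 46.7% of the members' peaks at start sites, against 41.1% and 43.8% of all such peaks, and 79 matches there were footprinted in both libraries, 3 of them in the Ephb3 peak. Of these start-site matches, 44.7% and 35.9% were footprinted in members, below the 51.4% and 45.3% of all start-site peaks. CAGATG occurred in 22.3% and 24.4% of the distal peaks against 22.4% and 23.3% of all, with 17.8% and 14.7% of matches footprinted against 20.3% and 15.6%. TGANTCA, the AP-1 motif, occurred in 5.19% and 5.24% against 7.57% and 8.05%, and 0 of 31 and 1 of 22 matches lay under a footprint. In all distal peaks that share was also small, at 8.93% and 6.35%. In distal peaks GGGCGG occurred in 12.3% and 13.7%, against 9.17% and 9.39% of all. The members' shares of peaks with a match thus differed little from those of all peaks for CAGATG, lay lower for TGANTCA and lay higher for distal GGGCGG, with no test of these differences.

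A few rarer matches were footprinted in both libraries. TGACGTCA did so at 4 places, among them the distal peak near Sema3b and the start of Epha2 printed above, and it occurred in 0.422% and 0.384% of all distal peaks and 1.65% and 1.78% of all start-site peaks. GCGTGGGCG, which occurred in 0.742% and 0.816% of all start-site peaks, was footprinted at the inner starts of Sema6d and Plxna2, at Efna3 and, at 2 overlapping matches, in a distal peak of Plxnb2 (1.81 and 2.02), and its matches overlapped GGGCGG at 4 places. The RFX motif, found in 0.128% and 0.127% of all distal peaks, matched in a peak of 1.05 and 0.936 at Efnb3. TAATTA, found in 3.43% and 3.29% of all distal peaks, was footprinted in both libraries at 1 place. It lay 3.4 kb upstream of Plxna4 in a peak of 1.86 and 2.29. Per library, 86.3% and 81% of TGACGTCA matches in all start-site peaks were footprinted, and 55% and 40.2% in all distal peaks. For GCGTGGGCG at start sites the shares were 69.8% and 61.1%. In distal peaks they were 84.3% and 57.6% for RFX and 7.06% and 5.18% for TAATTA. Except for TAATTA, a footprint at a match was thus common among all peaks.

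Genes that act beside or below these receptors had a higher median signal at their start sites. Of 58 further guidance genes, among them adhesion molecules, adaptors and regulators of the cytoskeleton, 57 and 56 were open, with a median signal of 2.50 and 2.98. Nck1, an adaptor of several guidance receptors, had 10.2 and 12.4, Rgmb, a neogenin ligand, 9.46 and 10.0, and Dpysl2, a collapsin response mediator, 8.79 and 10.0. Flrt1 was closed in both libraries and the kinase gene Fes in replicate 2. Their median distal density was 3.64 and 3.22, below that of the ligands and receptors in replicate 1 (5.21) and in replicate 2 (3.47).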

How the data were processed

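DNase-seq libraries of 2 biological replicates were used. Per the file headers and text deposited with the files, the authors called, per library and on mm10, 2 lists of peaks, footprints, and per-base false discovery rates, which are adjusted p-values of the cut rate. The aligner, the peak caller and its cutoffs were not given in the sources used here. Each peak's signal is the deposited value in the authors' units, whose scaling and depth are not stated. The longer peak list was used. The value deposited with footprints did not rank them.

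Peaks were set against GENCODE M21 and GRCm38 sequence (RefSeq GRCm38.p6) with Python 3.11.15, pandas 2.3.3, numpy 2.4.6, pysam 0.24.0 and bedtools 2.31.1. All 21 chromosomes matched. Windows were 500 bp for start sites and 20 kb flanks for regions, overlap was at least 1 bp, and a match was under a footprint if 0.5 of it was covered. Printed sequences were limited to 300 bases and to 30 exonic bases. Interval overlap was tested on simulated data, with 0 differences from a direct search.

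The members, gene lists and windows were chosen with earlier results of these data known. Named genes were, per family, the highest and lowest promoter signals, members closed in a library and the 10 highest and 5 lowest distal densities. Also named were the 5 richest regions, the 10 strongest distal peaks among those shared by the libraries and the 3 largest differences between libraries. Other members are given as part of a full account of each family. Alternatives comprised other windows, flanks, peak lists, peak numbers and each library alone.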

Additional observations from a re-analysis of the deposited data

How the results depend on the processing

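Values here are means of the libraries. The number of open members (62.5) kept within 58.5 to 66 over the windows, lists and peak numbers tried, and from 61 to 64 with either library left out. The median promoter signal of members (1.68) became 2.08 with a 2000 bp window and 3.08 as a sum of peaks, and 1.54 to 1.82 with a library left out. The number of peaks in member regions (769.5) became 1442.5 with 100 kb flanks, 438 with the shorter list and 447 with the strongest 50% of peaks, and 656 to 883 with a library left out. The median distal density (4.34) became 2.22 with the shorter list, 2.22 with the strongest 50%, 2.49 with shared peaks and 825 bases per 100 kb as covered bases, and 3.47 to 5.21 with a library left out. The share of peaks shared (73.6%) became 56.9% with 50% reciprocal overlap, and 62.5% to 84.6% by library. Results added after seeing the data were these. The median signal of open members (1.93) became 3.23 as a sum, and its ratio to that of all genes (0.56) became 0.646 with 2000 bp, 0.502 at gene starts alone and 0.732 as a sum. The members above the all-gene median numbered 41 to 49 for signal and 42.5 to 54 for density over the settings. For the highest promoter signals of the families, 62 of 80 alternative values moved by no more than the SD of the libraries, and for the 10 highest densities 41 of 70. As a sum of peaks, Ntn3 became 3.81, Robo1 3.62, Sema5b 3.81, Sema4c 10.7, Efna3 6.74, Plxnc1 10.4 and Epha7 9.25. No paired analysis was possible because the 2 libraries form 1 group. The depth is not given, so an absent weak peak is not evidence of closed chromatin.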
